A study of Mus musculus with 18 samples.

Results

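Bone morphogenetic proteins (BMPs) are secreted ligands of the TGF-beta superfamily, and 9 genes of their pathway were followed here through mouse gastrulation. They were 3 ligand genes (Bmp2, Bmp4 and Bmp7) and 6 genes that BMP signalling is known to switch on (Id1, Id2, Id3, Msx1, Msx2 and Smad6). All 9 were found by symbol among the 22997 nuclear genes of the deposited tables. The cells came from wild-type C57BL/6 mouse embryos, with no treatment, at E6.75 and E7.5 (E, embryonic day), and each of 18 libraries held 96 cells. At E6.75 (6 libraries) the extraembryonic part had been removed, each embryo was dissociated by itself, and cells were picked by hand for CEL-Seq2. At E7.5 (12 libraries) embryos were trimmed beneath the chorion so that extraembryonic mesoderm was kept, embryos from 1 or 2 litters were pooled, and cells sorted by flow cytometry went into mCEL-Seq2, a miniaturised form of the method. Stage, collection and protocol cannot be told apart, and the embryo of origin of a cell was not known here.

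BMP ligands bind pairs of type I and type II receptor kinases, which phosphorylate SMAD1, SMAD5 and SMAD9. With SMAD4 these proteins enter the nucleus and activate target genes, among them Id1, Id2 and Id3, whose proteins block basic helix-loop-helix transcription factors, the homeobox genes Msx1 and Msx2, and Smad6, whose product inhibits the pathway. In the gastrulating mouse embryo, Bmp4 from the extraembryonic ectoderm is known to act on the neighbouring epiblast, Bmp2 is known from the visceral endoderm, and extraembryonic mesoderm and amnion later become further sources of ligand.

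Both methods count molecules by unique molecular identifiers (UMIs), and levels are given as transcripts per 1000000 nuclear transcripts (CPM), summed over the cells of a library. Cells with at least 2000 nuclear transcripts were used: 543 of 576 at E6.75 and 429 of 1152 at E7.5. Libraries held 2933395 to 5493791 nuclear transcripts at the earlier stage and 518343 to 2627269 at the later, apart from E7.5 replicate 5, which had 3042 transcripts, no cell above the minimum, and entered no test. The median depth per cell of a library was 22330.6 to 54686.3 transcripts in E6.75 libraries and 18981.8 to 57139.6 in E7.5 libraries. Nothing in the labels says that libraries of a stage came from separate embryos, so p-values measure the spread between these libraries, which may be technical. Each library used 96 of the numbered barcodes: the lower-numbered set in 8 libraries, the upper in 8, and alternating pairs in E6.75 libraries 2_13 and 2_14, so libraries share barcode numbers in full, in part or not at all. Visceral endoderm markers (Ttr, Afp, Apoa1 and others) marked 41 cells at E6.75 and 2 at E7.5, and extraembryonic ectoderm markers (Elf5, Wnt7b, Rhox6 and others) marked 12 and 5, with 1 E6.75 cell in both sets. The E6.75 part of the collection therefore held some cells with extraembryonic ectoderm markers although the extraembryonic part had been cut off. Visceral endoderm also surrounds the epiblast, so cells with its markers do not bear on that cut.

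The 9 genes lie on 7 chromosomes (GENCODE M21 on GRCm38; the build behind the deposited counts is not given in the sources used here). Bmp2 (chr2:133552159-133562885, plus strand), Bmp7 (chr2:172868012-172940321, minus) and Id1 (chr2:152736251-152737410, plus) share chromosome 2. Bmp4 (chr14:46383520-46390669, minus) overlaps Gm15217 and Gm15222 on the plus strand, and whether strand was used in counting is not given, so Bmp4 values may include reads of those genes. The others are Id2 (chr12:25093799-25097140, minus), Id3 (chr4:136143497-136145755, plus), Msx1 (chr5:37820485-37824583, minus), Msx2 (chr13:53466884-53473074, minus) and Smad6 (chr9:63953076-64022059, minus).

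RefSeq promoters (GRCm38.p6) were at hand for 6 of the 9 genes: Bmp4, Id2, Id3, Msx1, Msx2 and Smad6. Given here are the 250 bases before the start of Bmp4 (chr14:46390670-46390919, minus strand), Msx1 (chr5:37824586-37824835, minus strand) and Smad6 (chr9:64022060-64022309, minus strand), a ligand, a target and the inhibitor that were all higher in E7.5 cells holding Hand1. Capitals mark E-boxes (CANNTG on either strand), the textbook binding motif of basic helix-loop-helix factors, the class to which Hand1 belongs. The motif was chosen with the Hand1 results known.
Bmp4: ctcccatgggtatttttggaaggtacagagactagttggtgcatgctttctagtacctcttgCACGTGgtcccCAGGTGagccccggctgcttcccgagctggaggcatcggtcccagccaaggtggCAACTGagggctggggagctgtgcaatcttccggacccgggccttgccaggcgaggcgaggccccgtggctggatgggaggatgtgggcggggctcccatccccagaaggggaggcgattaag
Msx1: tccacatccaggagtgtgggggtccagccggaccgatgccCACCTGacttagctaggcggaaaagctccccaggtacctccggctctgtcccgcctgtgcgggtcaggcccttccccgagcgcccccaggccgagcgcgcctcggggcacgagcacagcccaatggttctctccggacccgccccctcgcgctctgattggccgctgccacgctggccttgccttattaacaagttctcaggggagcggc
Smad6: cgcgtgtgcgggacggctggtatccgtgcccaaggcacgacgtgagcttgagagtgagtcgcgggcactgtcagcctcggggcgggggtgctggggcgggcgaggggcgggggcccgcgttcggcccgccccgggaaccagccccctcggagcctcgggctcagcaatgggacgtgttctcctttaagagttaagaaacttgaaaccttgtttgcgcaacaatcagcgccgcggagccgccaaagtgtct
The Bmp4 window held 3 E-boxes, those of Msx1, Msx2 and Id2 held 1 each, and those of Smad6 and Id3 held none. An E-box occurred in 66.2% of all 32851 promoter windows of this length. The palindrome GGCGCC, a GC-rich SMAD motif, was in the Id2 window once and in 9.59% of all windows. The SMAD box CAGAC, searched on both strands, was in the Id3 window at 2 places and in 42.2% of all windows. The remaining 4 windows had neither SMAD motif. The Id2, Id3 and Msx2 windows lie inside the GENCODE bounds of these genes given above, so they may hold transcribed sequence. These matches describe letters in 1 window per gene, not sites in use.

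Between the stages, all 3 ligand genes and 4 of the 6 targets (Id1, Msx1, Msx2 and Smad6) were higher at E7.5, while Id2 and Id3 did not pass the test. All 9 genes passed the filter on low counts, and 7 were called, all higher (edgeR's quasi-likelihood F test, adjusted p under 0.05). Of all 9998 genes tested, 38.8% were called and 20% were called higher, so many genes differed between these collections. The comparison used 6 E6.75 and 11 E7.5 libraries. In summed cells, more cells with a gene and more RNA per cell cannot be told apart.

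Bmp4, the ligand of extraembryonic ectoderm and mesoderm, had a lowest, median and highest level of 8.15, 13.7 and 52.8 CPM at E6.75, and of 9.65, 81.9 and 165 at E7.5. E6.75 library 2_12 was the highest of its stage and E7.5 replicate 8 the lowest of its own, and the ranges overlapped through that replicate and replicates 3 and 4. The log2 fold change was 2.01 ± 0.43 (SE; edgeR adjusted p = 0.000836). Bmp2 stood at 2.63, 6.54 and 8.22 at E6.75 and at 1.61, 20.1 and 72.6 at E7.5, with the widest spread at the later stage (replicate 1 highest, replicate 8 lowest), a log2 fold change of 2.04 ± 0.44 and an edgeR adjusted p of 0.000945. Bmp7, a ligand that often acts as a dimer with the other BMPs, was at 0.662, 0.851 and 10.1 at E6.75 and 11.9, 25.7 and 60.3 at E7.5, so that the ranges did not overlap. The log2 fold change was 2.82 ± 0.46 (edgeR adjusted p = 6.08e-05). The E6.75 libraries 2_13 (6.74) and 2_14 (10.1) stood apart from the other 4, which were all below 1 CPM. Libraries 2_13 and 2_14 were also the highest of their stage for Msx1 (20.4 and 28.9), Msx2 (7.84 and 7.57) and Smad6 (10.8 and 12.2). They had the greatest median depth as well, and the part of depth in these levels was not tested.

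Among the targets, the homeobox genes had the largest log2 fold changes between the stages. Msx2 was at 1.99, 4.12 and 7.84 CPM at E6.75 and at 6.43, 31.3 and 68.1 at E7.5 (log2 fold change 2.70 ± 0.35, edgeR adjusted p = 3.58e-06). Msx1 was at 7.54, 16.1 and 28.9, then at 15.2, 64.8 and 117 (1.94 ± 0.32, edgeR adjusted p = 6.32e-05). For Msx2, replicate 8 alone lay within the E6.75 range, and for Msx1, replicate 12 alone did. Smad6, the inhibitory SMAD, was at 3.86, 7.16 and 12.2, then at 8.04, 21.9 and 38.6 (1.34 ± 0.25, edgeR adjusted p = 0.000215), with replicate 8 again inside the E6.75 range.

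Of the Id genes, Id1 alone passed. Id1 was at 33.1, 63.9 and 105 CPM at E6.75 and at 41.6, 114 and 161 at E7.5, and its log2 fold change of 0.68 ± 0.23 had an edgeR adjusted p of 0.0212. That call was lost with the E6.75 libraries numbered 2_ alone (0.52, edgeR adjusted p = 0.112), with thinned cells (0.57, 0.165), without E6.75 library 1_10 (0.55, 0.0536) and without library 2_12 (0.59, 0.0584). Id3, present in most cells before thinning, was at 212, 245 and 316 and then at 218, 285 and 353 (0.12 ± 0.11, edgeR adjusted p = 0.41). Id2 was at 39.1, 60.1 and 122 and then at 23.3, 57.2 and 283 (0.20 ± 0.39, edgeR adjusted p = 0.721), with replicate 12 far above the other E7.5 libraries.

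**Figure D1:**
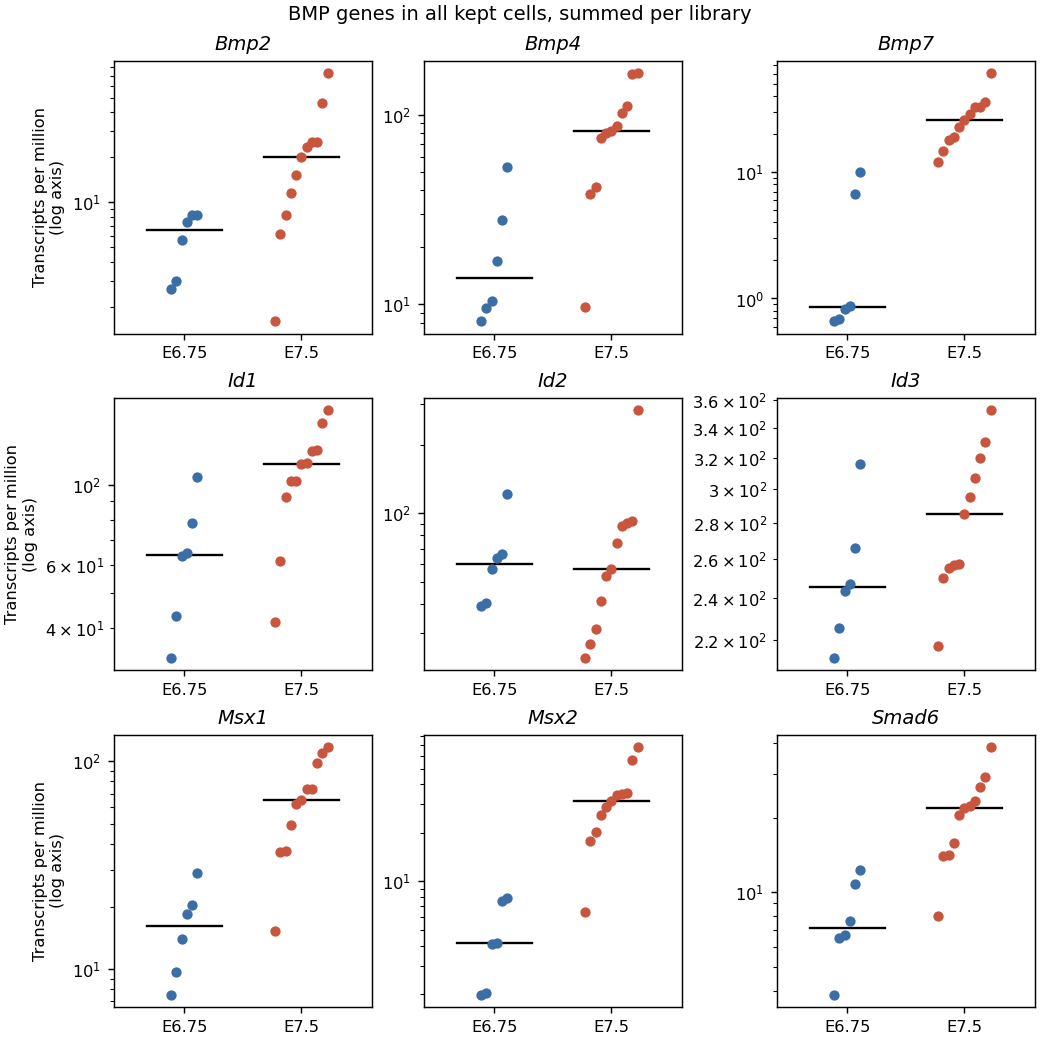
CPM of each gene (log axis) in the 6 E6.75 and 11 E7.5 libraries; each point is a library, points of a stage are set out in order of value, and lines are medians. The 2 stages do not overlap for Bmp7, overlap through 1 E7.5 library for Msx1, Msx2 and Smad6, and overlap widely for Id2 and Id3.

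Cells with extraembryonic markers carried much of the Bmp2 and Bmp4 RNA at E6.75. Of Bmp7 transcripts, those with visceral endoderm markers held 2.02% and those with extraembryonic ectoderm markers 5.05%. The visceral endoderm-marked cells were 7.37% of the E6.75 cells (40 of 543, the cell in both sets being counted with the ectoderm) and held 4.44% of all transcripts but 63.6% of Bmp2 transcripts. The extraembryonic ectoderm-marked cells were 2.21% of cells with 2.08% of all transcripts, and held 59.3% of Bmp4 and 18.8% of Id2. Without library 2_12, which had 6 of these cells, the shares were 44.9% and 13.1%. At E7.5, such ectoderm-marked cells (1.17% of cells) held 8.55% of Bmp4 and 21.9% of Id2. The Id2 share rested on 2 cells of replicate 12 and was 8.35% without that library. With both kinds of cells left out, the log2 fold change between the stages was 3.46 for Bmp2 (edgeR adjusted p = 2.26e-05) and 3.24 for Bmp4 (1.43e-06), against 2.04 and 2.01 with them. For the other 7 genes it moved by less: 2.81 for Bmp7, 0.67 for Id1, 0.01 for Id2, 0.05 for Id3, 1.99 for Msx1, 2.85 for Msx2 and 1.59 for Smad6.

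Shares of cells were compared at equal depth, each cell thinned to 2000 transcripts. Bmp4 was then found in 3.04% ± 2.14 (SD, n = 6) of cells at the earlier stage and 11.3% ± 4.60 (SD, n = 11) at the later one (exact two-sided permutation test, adjusted over the 9 genes, p = 0.00349). Bmp7 was in 0.646% ± 0.800 and 5.12% ± 2.21 of cells (exact permutation, adjusted p = 0.00145), and Bmp2 in 1.70% ± 0.971 and 3.21% ± 2.61 (0.258). The Bmp2 difference thus did not pass, but passed with the extraembryonic cells left out (2.51 percentage points, exact permutation adjusted p = 0.0079). Msx1 was in 3.35% and 10.3% (exact permutation, adjusted p = 0.00242), Msx2 in 1.13% and 5.85% (0.00242), Smad6 in 1.52% and 4.17% (0.00349) and Id1 in 10.7% and 16.4% (0.0116). Id2 was in 9.91% and 11.4% (exact permutation, adjusted p = 0.736) and Id3 in 36.5% and 39.3% (0.44), neither passing. Without thinning, the shares were several times as high, for example 21.2% and 38.4% for Bmp4 and 91.1% and 85.5% for Id3, and the calls of Msx1 and Smad6 were lost (exact permutation, adjusted p = 0.0611 each). The Id1 call was lost with the E6.75 libraries numbered 2_ alone (exact permutation, adjusted p = 0.0835) and for cells with at least 2 transcripts (0.0863).

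Cells were then split within each library by whether they held a transcript of 4 lineage markers: Hand1, a factor of lateral and extraembryonic mesoderm; Mesp1, of early mesoderm; Foxa2, of endoderm and axial mesoderm; and Sox2, of the epiblast and neural ectoderm. Cells with visceral endoderm or extraembryonic ectoderm markers were left out, and library was a block. The splits of a stage use the same cells and are not independent of each other, and a cell without a marker transcript may still express the gene.

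At E7.5, nearly all of the 9 genes were higher in cells with Hand1. In the 10 libraries with at least 3 cells on each side (185 cells with Hand1, 222 without), all 9 genes passed the filter and 8 were called, all higher in cells with Hand1, where 2.76% of all 6671 genes were called and 1.63% were called higher. Bmp7 was the exception. The median log2 fold change was 1.47 over the 9 genes and −0.004 over all genes tested. Cells with Hand1 were also deeper, with a median of 34040.6 transcripts against 23529.9 over libraries, and depth can set which cells count as holding Hand1. The part of that depth difference in the result was not tested beyond thinning, which left no member testable.

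Bmp4 lay at 7.08, 10.5 and 19.9 CPM (lowest, median, highest) in cells without Hand1 and at 74.3, 135 and 266 in cells with it. It was higher with Hand1 in 10 of 10 libraries and the ranges did not overlap (log2 fold change 3.60 ± 0.17, edgeR adjusted p = 1.12e-12). Msx2, at 0, 3.65 and 22 without and 38.1, 50.8 and 95.5 with Hand1, was also higher in 10 of 10 libraries with no overlap (3.70 ± 0.27, edgeR adjusted p = 1.97e-09). Msx1 stood at 2.49, 15.1 and 86.9 without and 38.1, 107 and 235 with Hand1 (2.86 ± 0.19, edgeR adjusted p = 4.69e-10), higher in 9 of 10. The exception was replicate 10, in which Msx1 was 86.9 in 5 cells without Hand1 and 65.0 in cells with it.

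Smad6 was at 3.75, 10.5 and 37.3 without and 15.2, 31.8 and 45 with Hand1 (1.63 ± 0.23, edgeR adjusted p = 7.56e-05; higher in 9 of 10). Bmp2 was at 0, 5.06 and 36.1 without and 9.80, 28.3 and 96.4 with Hand1 (1.47 ± 0.27, edgeR adjusted p = 0.00146, higher in 9 of 10). It stayed undetected in the cells without Hand1 of replicates 9, 10 and 11, which held only 182123, 80522 and 231500 transcripts in all. Cells with Hand1 there held 3, 16 and 6 Bmp2 transcripts. A count of 0 allows up to 3, so these replicates give no clear direction for Bmp2. Both genes overlapped between the sides, and Smad6 moved the same way within nearly every library. Without the library block, the Bmp2 call was lost (edgeR adjusted p = 0.3), and without replicate 1 or 2 Bmp2 had too few counts to be tested.

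Id1 had the largest log2 fold change of the Id genes, at 27.5, 53.7 and 94.1 without and 42.7, 146 and 221 with Hand1, higher in 10 of 10 libraries (1.24 ± 0.13, edgeR adjusted p = 9.24e-07). Id2 (13.6, 36.5 and 76.2 without, 14.5, 68.0 and 129 with) and Id3 (144, 271 and 435 without, 232, 333 and 489 with) were higher in 8 of 10 libraries each. Their log2 fold changes were 0.80 ± 0.19 (edgeR adjusted p = 0.0208) and 0.49 ± 0.12 (0.0247). The Id2 call was lost without replicate 1 (edgeR adjusted p = 0.0936), 2 (0.0887) or 3 (0.0592), with DESeq2 (0.0695) and without the library block (0.695). The Id3 call was lost without any 1 of replicates 1, 2, 4, 6 and 7, with DESeq2 (adjusted p = 0.251) and without the block (0.477). Bmp7 was at 0, 25.7 and 54.9 without and 12, 23.3 and 75.2 with Hand1 (0.12 ± 0.24, edgeR adjusted p = 0.936). It was higher with Hand1 in some libraries and lower in others.

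**Figure D2:**
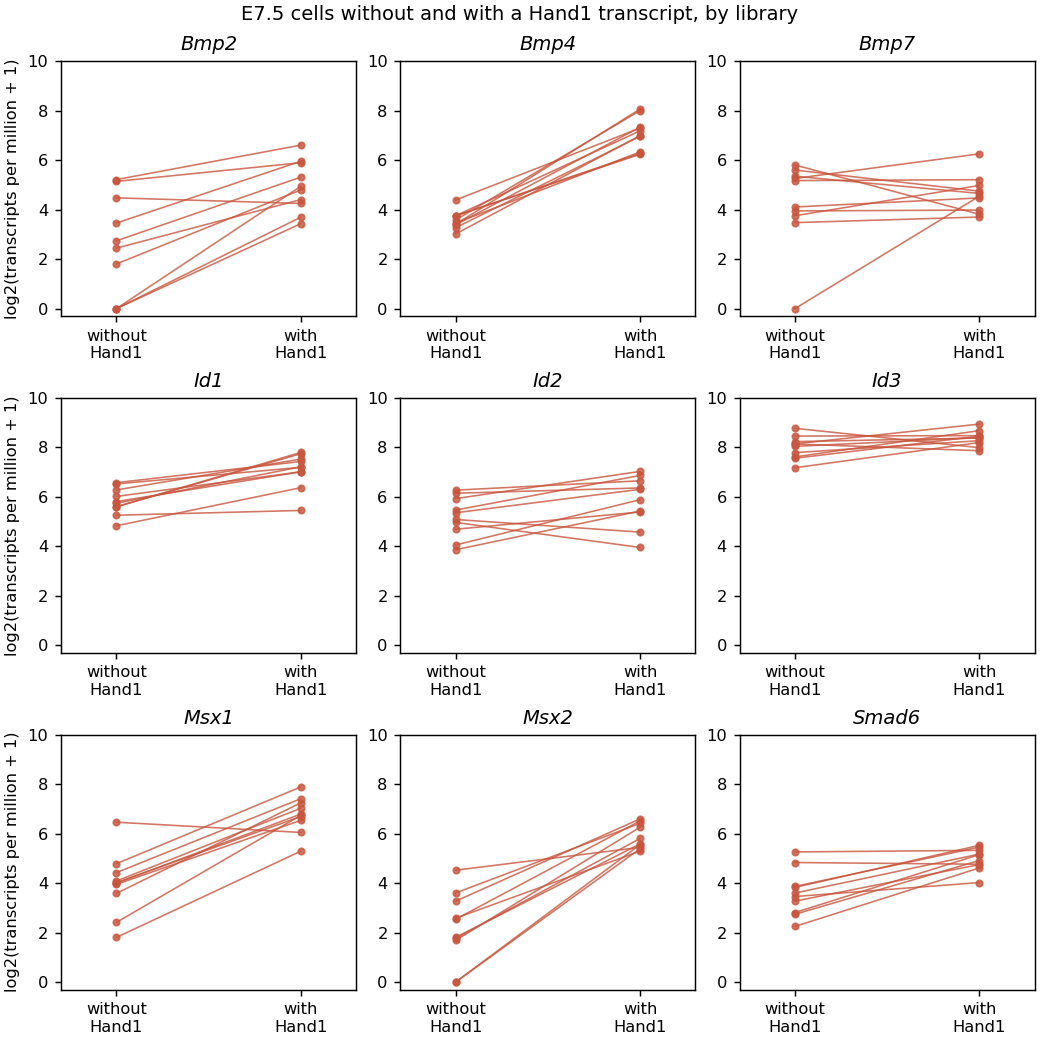
Each gene in E7.5 cells without and with a Hand1 transcript, as log2(CPM + 1); each line joins the 2 sides of 1 of 10 libraries. All 10 lines rise for Bmp4, Msx2 and Id1, the 2 sides of Bmp4 and Msx2 do not overlap, and the lines of Bmp7 go both ways.

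Of the 422 E7.5 cells without extraembryonic markers, cells with Hand1 were 44.3% and held 49.8% of all transcripts. They held 93.1% of the Bmp4, 88.6% of the Msx1, 93.0% of the Msx2, 76.3% of the Smad6 and 73.7% of the Bmp2 transcripts of these cells. Other markers moved with the split. The summed level of 6 lateral and extraembryonic mesoderm markers, all detected on both sides, was 129 to 671 CPM (median 304) in libraries' cells with Hand1 and 21.1 to 159 (57.3) in those without. Surface ectoderm and amnion markers summed to 58.7 to 837 (441) against 62.0 to 503 (157), and epiblast markers to 834 to 3110 (1839) against 852 to 4095 (3048). Extraembryonic ectoderm markers summed to 7.42 to 72.3 (27.3) against 3.78 to 54.8 (14.4), with Rhox6 and Rhox9 at 0 in cells with Hand1. The part of cell makeup in these differences was not tested.

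At E6.75, Hand1 was rarer, and only libraries 2_12, 2_13 and 2_14 had enough cells (4, 9 and 16 with Hand1). Of 8 genes that passed the filter on low counts, Id1, Id2, Msx1 and Msx2 were called, all higher with Hand1, where 1% of all 9372 genes were called and 0.822% were called higher. Msx2 rose in each library, from 2.71, 5.55 and 2.53 CPM (libraries 2_12, 2_13 and 2_14) to 25, 21.4 and 25.2, with no overlap (2.69 ± 0.50, edgeR adjusted p = 0.00349). The call was lost without 2_14 (edgeR adjusted p = 0.295). Msx1 went from 8.14, 12.9 and 14.7 to 0, 73.0 and 83.6 (2.33 ± 0.31, edgeR adjusted p = 6.27e-05), so it was higher in the 2 libraries with more cells and not found in the 4 cells of 2_12. Id1 had the same shape, from 44.6, 57.0 and 62.3 to 0, 89.1 and 250 (1.23 ± 0.29, edgeR adjusted p = 0.0364), and lost its call without 2_13 (1.40, edgeR adjusted p = 0.11) or without 2_14 (0.17, 0.999). With DESeq2 the Id1 log2 fold change was 0.03 (adjusted p = 1.0), and the call was also lost without the block, with cells of at least 5000 transcripts (edgeR adjusted p = 0.0541) and with the extraembryonic cells kept (0.0537).

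Id2 at E6.75 went from 59.7, 39.3 and 55.2 without Hand1 to 492, 28.5 and 111 with it (1.31 ± 0.32, edgeR adjusted p = 0.0484). The difference rested on library 2_12: without it the log2 fold change was 0.57 (edgeR adjusted p = 0.346). The call was also lost in 6 other settings, among them at least 2 Hand1 transcripts (0.05, edgeR adjusted p = 0.995) and DESeq2 (1.20, adjusted p = 1.0). Its 4 cells with Hand1 had extraembryonic ectoderm markers at 167 CPM, 1 of them at 961, against 16.0 in 2_13 and 12.1 in 2_14, and the part of such cells in the Id2 value was not tested. Bmp4 went from 5.43, 5.33 and 8.86 to 33.3, 21.4 and 5.03 (1.08 ± 0.59, edgeR adjusted p = 0.799), higher in 2 libraries and lower in the third. Smad6, from 4.65, 7.55 and 6.58 to 16.7, 16.0 and 25.2, was higher in every library but did not pass (1.6 ± 0.45, edgeR adjusted p = 0.133). It passed without 2_12 (1.59, edgeR adjusted p = 0.0404), with the extraembryonic cells kept (1.78, 0.00818) and with at least 2 Hand1 transcripts (2.16, 0.0346). Bmp7 (1.0, edgeR adjusted p = 0.772) and Id3 (0.36, 0.453) were not called, though Id3 passed with at least 2 Hand1 transcripts (0.58, edgeR adjusted p = 0.0396), and Bmp2 had too few counts to be tested.

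The difference between cells with and without Hand1 was itself compared between the stages. Of the 9 genes, Bmp4 alone passed, with a difference 2.64 ± 0.51 larger at E7.5 on the log2 scale (edgeR adjusted p = 0.00732), where 0.451% of all 8868 genes were called. The call was lost without library 2_14 (1.47, edgeR adjusted p = 0.628) and without the library block (2.61, 0.268). With the extraembryonic cells kept, the sign turned (−0.53, edgeR adjusted p = 0.897). All 12 ectoderm-marked cells at E6.75 held both Hand1 and Bmp4, and with them the E6.75 difference was 4.25 (edgeR adjusted p = 0.00114).

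**Figure D3:**
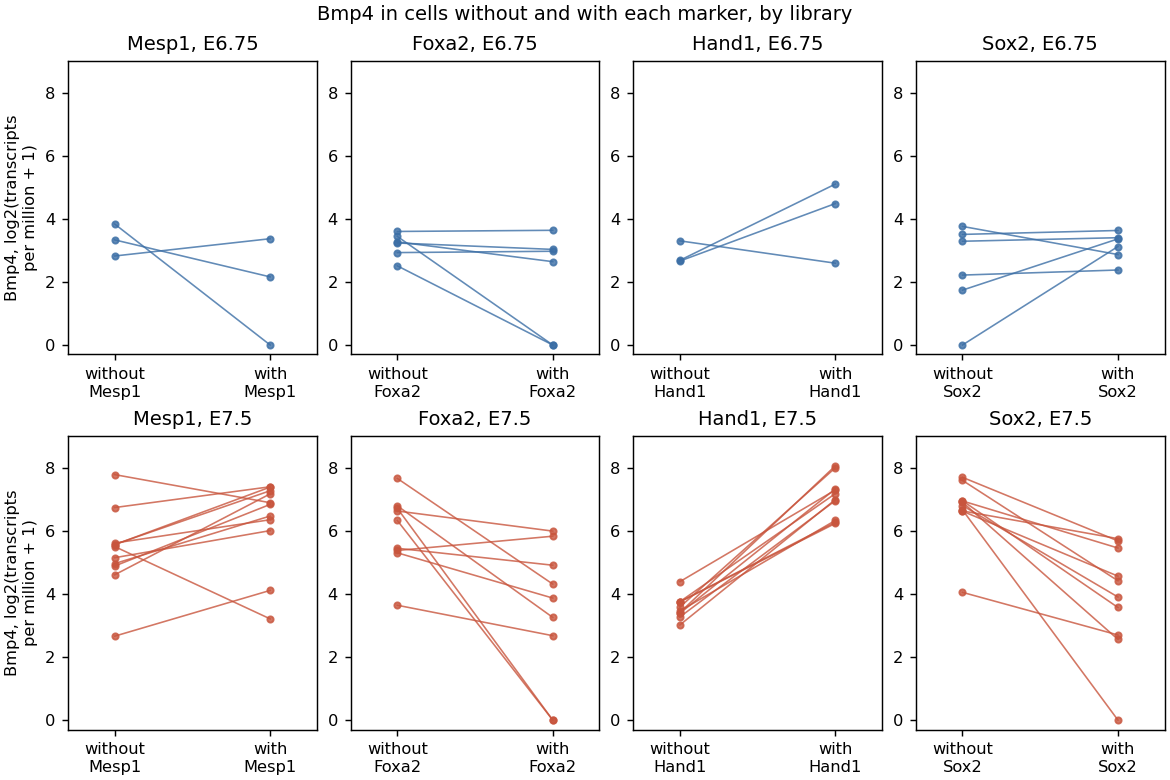
Bmp4 as log2(CPM + 1) in cells without and with each of the 4 markers, at both stages; each line joins the 2 sides of a library. At E7.5 all 10 lines rise with Hand1 and all 10 fall with Sox2, while at E6.75 no marker gives a difference in Bmp4 that passed the test.

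Mesp1, the early mesoderm marker, gave calls for 3 targets at the earlier stage. At E6.75 (libraries 2_13, 2_14 and 2_9, with 28, 16 and 5 cells holding Mesp1), 8 genes were tested and Id1, Msx1 and Msx2 were called, all higher, where 1.17% of all 9732 genes were called and 0.997% called higher. Msx2 was at 4.05, 4.17 and 2.58 CPM without Mesp1 (libraries in the order above) and at 14.3, 20.8 and 8.13 with it, without overlap (2.00 ± 0.42, edgeR adjusted p = 0.0174). Msx1 was at 12.1, 19.9 and 11.4 without and 35.5, 69.3 and 4.06 with Mesp1 (1.35 ± 0.32, edgeR adjusted p = 0.0482). Id1 was at 49.1, 67.4 and 77.8 without and 85.2, 253 and 67.0 with Mesp1 (1.02 ± 0.24, edgeR adjusted p = 0.0467). Library 2_9 went the other way for Msx1 and Id1, and all 3 calls were lost with DESeq2, with the extraembryonic cells kept, and without 2_13 or without 2_14. Without 2_14, Id2 was called lower instead (−0.96, edgeR adjusted p = 0.0202). Bmp4 (−0.64, edgeR adjusted p = 0.823) and Bmp7 (1.5, 0.155) were not called, nor were Id2 (−0.35), Id3 (−0.09) and Smad6 (0.62). Bmp2 had too few counts to be tested.

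At E7.5 the Mesp1 split covered 11 libraries and Bmp4 was the 1 of 7 tested genes that passed, where 6.18% of all genes were called. Cells with Mesp1 were deeper, with a median of 40090.1 transcripts against 25525.2 over libraries. Bmp4 was at 5.32, 44.3 and 219 CPM without and at 8.24, 113 and 167 with Mesp1, higher in 9 of 11 libraries (0.99 ± 0.26, edgeR adjusted p = 0.0203). The ranges overlapped almost wholly, and the call was lost without any 1 of replicates 2, 6, 7 and 11 and in 3 further settings. The split by both markers is given as a description. Over all cells of a kind, Bmp4 was at 210 CPM in cells with both, 114 with Hand1 without Mesp1, 8.46 with Mesp1 without Hand1 and 13.2 with neither. The other tested genes had log2 fold changes of 0.54 (Bmp7), −0.02 (Id1), −0.66 (Id2), −0.01 (Id3), 0.49 (Msx1) and 0.33 (Msx2). Of these, Msx1 passed without replicate 1 (0.81, edgeR adjusted p = 0.0139), and Id2 passed with the extraembryonic cells kept (−0.98, 0.0274). Bmp2 and Smad6 had too few counts. No gene of the 9 passed the comparison of the Mesp1 difference between stages by edgeR or DESeq2 (0.403% of all genes passed by edgeR), where 2 had an unadjusted edgeR p under 0.05.

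Sox2 ran opposite to Hand1 for 3 of the tested genes at E7.5. Of 7 genes tested over 10 libraries (188 cells with Sox2, 219 without), Bmp4, Msx1 and Msx2 were lower and Id2 was higher with Sox2, where 9.11% of all genes were called. Cells with Sox2 had a median of 37459.8 transcripts against 31921.3 over libraries. The gap was wide in replicates 10 (54012.7 against 4698.11) and 12 (39661 against 3519.1), and ran the other way in replicates 1, 6 and 8. The part of depth in these calls was not tested. Bmp4 was at 15.6, 115 and 206 CPM without and at 0, 17.1 and 52.9 with Sox2, lower in 10 of 10 libraries (−2.34 ± 0.23, edgeR adjusted p = 2.53e-07). Replicate 8, with 15.6, was the lowest without Sox2, and the next lowest was 97.5, above all values with Sox2. Msx1 (27.2, 93.6 and 141 without, 1.89, 39.1 and 71.3 with) was lower in 8 of 10 libraries (−1.42 ± 0.26, edgeR adjusted p = 0.000581). Msx2 (7.78, 54.9 and 92.5 without, 2.91, 14.1 and 42.8 with) was lower in 9 of 10 (−1.6 ± 0.31, edgeR adjusted p = 0.000975).

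Id2 was the only 1 of the 9 genes called higher with Sox2, at 15.6, 36.0 and 77.4 without and 17.1, 72.8 and 132 with it. It was higher in 9 of 10 libraries (0.62 ± 0.17, edgeR adjusted p = 0.0239), and the call was lost without replicate 3 (edgeR adjusted p = 0.0795) or replicate 7 (0.0527) and without the block (0.146). Id1 (−0.07), Id3 (−0.003) and Bmp7 (−0.49, edgeR adjusted p = 0.366) did not pass. Without replicate 1, in which Bmp7 was at 119 with Sox2, Bmp7 was called lower (−1.0, edgeR adjusted p = 0.00538). Bmp2 and Smad6 had too few counts to be tested. Bmp2 was at 3.89, 41.9 and 87.1 without and at 0, 5.67 and 32.1 with Sox2, lower in 9 of 10 libraries. In 3 of these it was undetected with Sox2, where a count of 0 may not give a direction. Smad6 was at 7.78, 24.9 and 47.4 without and at 2.91, 12.8 and 39.1 with Sox2, lower in 8 of 10. Over all cells of a kind, Bmp4 was at 235 CPM in cells with Hand1 and no Sox2, at 51.2 with both, at 10.1 with Sox2 and no Hand1 and at 13.6 with neither.

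At E6.75 none of 6 tested genes passed with Sox2 (0.241% of all genes did), by edgeR or DESeq2, and 1 of the 6, Msx1, had an unadjusted edgeR p under 0.05 (−0.67, adjusted p = 0.382). Cells with Sox2 were far deeper there, with a median of 50939.4 transcripts against 8396.46. Bmp4 was at 0, 6.21 and 12.5 without and at 4.19, 8.5 and 11.4 with Sox2, and passed with the extraembryonic cells kept (1.53, edgeR adjusted p = 0.00523). The Sox2 difference in Bmp4 was lower at E7.5 than at E6.75 on the log2 scale (−2.97 ± 0.54, edgeR adjusted p = 0.00156), the 1 call among the 9 genes, where 2.2% of all genes were called. It was lost without the library block (edgeR adjusted p = 0.0735).

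With Foxa2, calls were made for 2 ligands. At E7.5 (9 libraries, 58 cells with Foxa2 and 327 without), 6 genes were tested, and Bmp4 and Bmp7 were called, where 2.41% of all genes were. Bmp4 was at 11.5, 79.4 and 201 CPM without and at 0, 13.6 and 62.6 with Foxa2, lower in 8 of 9 libraries (−1.84 ± 0.34, edgeR adjusted p = 0.00194). Bmp7 was at 8.02, 24.4 and 52.9 without and at 5.39, 44.7 and 89.5 with Foxa2, higher in 7 of 9 (1.07 ± 0.29, edgeR adjusted p = 0.0388). Replicates 6 and 8 went the other way for Bmp7, each with 1 Bmp7 transcript in 3 cells with Foxa2. The Bmp7 call was lost in 10 of the alternative settings. The Bmp4 call was lost with DESeq2 (adjusted p = 0.0675) and without the block (0.15). Msx1 (−1.01, edgeR adjusted p = 0.158), Id2 (−0.51, 0.512), Id3 (−0.22, 0.742) and Id1 (0.05, 0.999) did not pass. Bmp2, Msx2 and Smad6 had too few counts to be tested. Msx2 and Smad6 were each lower with Foxa2 in 8 of 9 libraries, and Bmp2 was higher in 4 and lower in 5. Each of these genes was undetected with Foxa2 in 3 libraries, on sides of 3 or 4 cells. Such a 0 may not give a direction, so these tallies are weak.

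Leaving out replicate 8 changed these calls. Its 3 cells with Foxa2 had Id1 at 312 and Id3 at 533 CPM, the highest of the 9 libraries, and Msx1 at 97 against 11.5 in its cells without Foxa2. Without replicate 8, Id2 (−0.86), Id3 (−0.51), Msx1 (−1.47) and Msx2 (−1.38) were called lower as well, which made 6. At E6.75, none of 6 tested genes passed with Foxa2 by edgeR or DESeq2, none had an unadjusted p under 0.05, and 0.502% of all genes were called. In the comparison of the Foxa2 difference between stages no gene of the 9 passed by either tool, 3 had an unadjusted edgeR p under 0.05, and 0.936% of all genes were called.

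To set the levels side by side, E7.5 cells were sorted into exclusive kinds: with Hand1 but no Foxa2 or Sox2 (10 libraries), with Sox2 alone (8), with Mesp1 alone (7), and with none of the 4 markers (9). The Hand1 kind took in cells with and without Mesp1. The other 135 of the 422 cells held Foxa2 alone (14 cells, with only 2 libraries of 3 or more) or another combination (121 cells, 10 libraries), and are outside the orders given here. Among the 4 kinds, Bmp4 was highest in the Hand1 cells at 244 ± 119 CPM (SD), then 21.9 in cells with no marker, 11.4 with Sox2 alone and 8.95 with Mesp1 alone. Msx1 (173 ± 70.9), Msx2 (88.6 ± 39.4), Smad6 (44.4 ± 17.2) and Id1 (121) were likewise highest in the Hand1 cells. For these 5 genes the gap to the next kind was larger than the larger of the 2 SDs, and no other gap between neighbours in their order was. Id1 had a mean of 134 ± 49.8 in the cells with another combination, above that of the Hand1 cells. Bmp2 (61.9 ± 46.2) and Id3 (365) also had their highest mean of the 4 kinds in Hand1 cells, but within the spread. Among the 4, Bmp7 had its highest mean in cells with Mesp1 alone (44.1 ± 25.6, then 32.3, 19.2 and 14.7) and Id2 had its own in cells with Sox2 alone (63.9, then 58.3 in Hand1 cells, 39.4 and 16.6), and no neighbours in these orders differed beyond their spread. The 2 libraries with Foxa2 alone had Bmp7 at 56.0 and 104 and Bmp2 at 0 and 152, means above those of the 4 kinds, and the cells with another combination had Id2 at 66.9 ± 29.1.

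**Figure D4:**
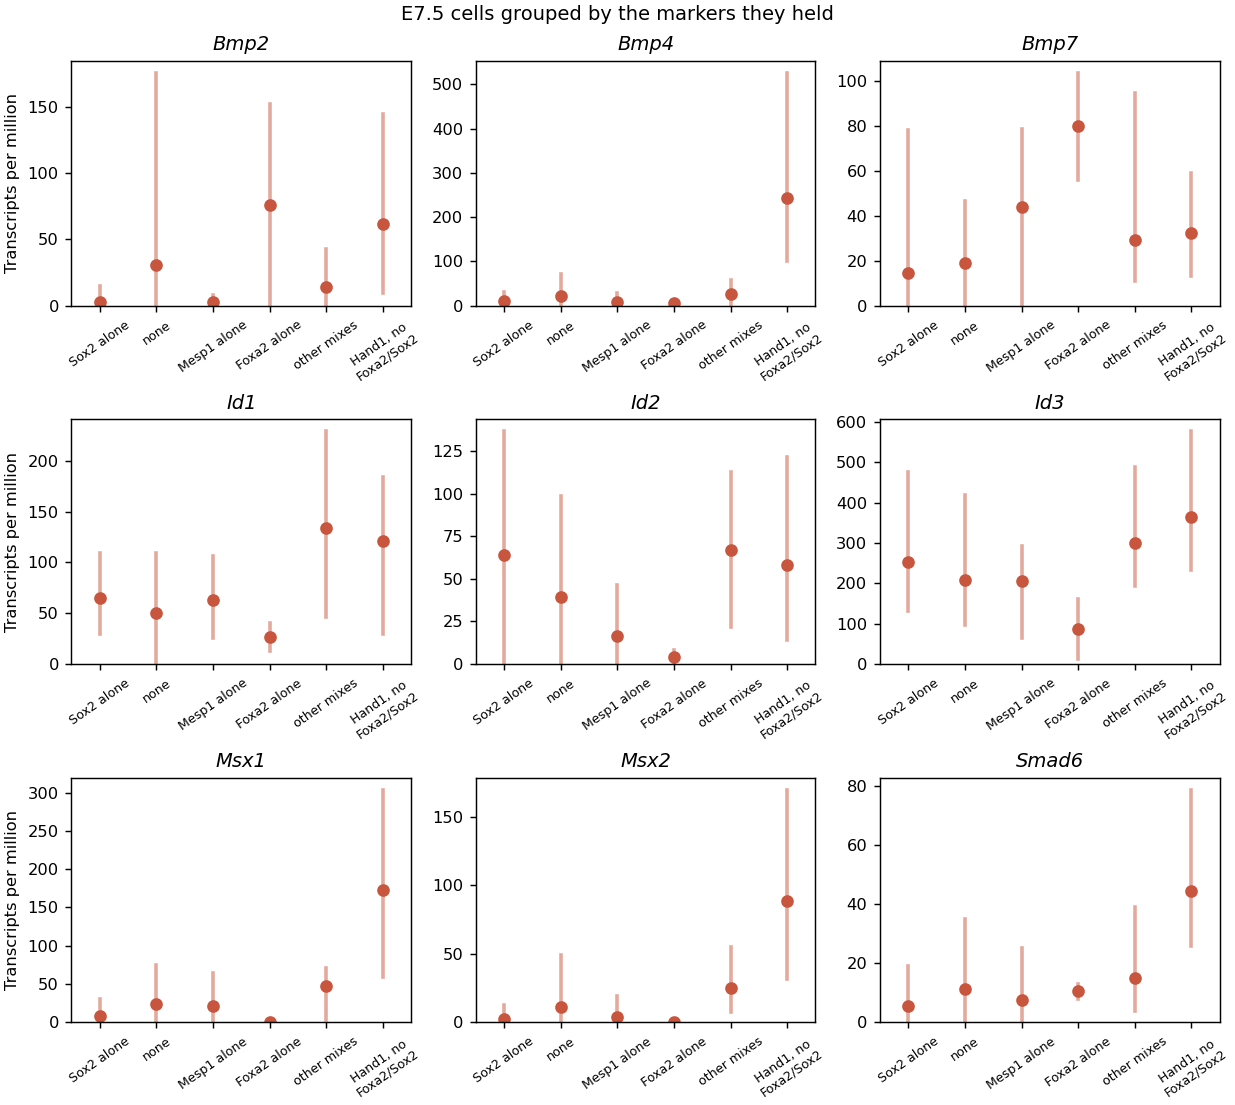
CPM of each gene in 6 exclusive kinds of E7.5 cells; dots are means over libraries and bars run from the lowest to the highest library (2 libraries for Foxa2 alone). Bmp4, Msx1, Msx2 and Smad6 have their highest mean in cells with Hand1 and no Foxa2 or Sox2, Bmp7 and Bmp2 in cells with Foxa2 alone, and Id1 and Id2 in cells with another combination.

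Visceral endoderm-marked cells at E6.75 held more Bmp2 and less Id3 than the other cells. In 6 libraries (41 such cells against 491 without extraembryonic markers), 8 genes were tested and 7 were called, 6 higher and 1 lower, where 35.1% of all genes were called and the median log2 fold change of all genes was −0.11. Bmp2 was at 0.345, 1.55 and 4.34 CPM in the other cells and at 54.4, 88.6 and 449 in the marked cells, with no overlap (5.50 ± 0.39, edgeR adjusted p = 2.5e-35). Library 2_12, with 3 such cells, was the highest. Id3 was the gene that was lower, at 217, 254 and 327 in the other cells and 98, 141 and 250 in the marked cells, lower in 6 of 6 libraries (−0.89 ± 0.18, edgeR adjusted p = 1.71e-05; −0.65 and 0.346 in thinned cells). Id1 was higher (0.82 ± 0.21, edgeR adjusted p = 0.000688), at 31.1, 63.1 and 99.9 in the other cells against 42.0, 102 and 227.

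The other calls in these cells rested on few transcripts. Smad6 was at 3.43, 6.05 and 10.3 in the other cells and 0, 22.7 and 58.1 in the marked cells (1.71 ± 0.47, edgeR adjusted p = 0.00156) and lost its call without library 2_14 (1.33, edgeR adjusted p = 0.0754). Msx2 (1.6 ± 0.56, edgeR adjusted p = 0.0153) and Msx1 (0.97 ± 0.38, 0.0347) were lost in 4 and 7 alternative settings. Bmp4 (1.62 ± 0.46, edgeR adjusted p = 0.00257) was carried by the 1 cell that held both marker sets, with 15 of the 26 Bmp4 transcripts of the marked cells, and without its library 1_10 the value was 0.39 (edgeR adjusted p = 0.647). It was also lost with DESeq2 (adjusted p = 0.192). Id2 did not pass (0.57, edgeR adjusted p = 0.0551) but did without library 2_14 (0.76, 0.0219) or 2_9 (0.89, 0.00758), and Bmp7 had too few counts.

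**Figure D5:**
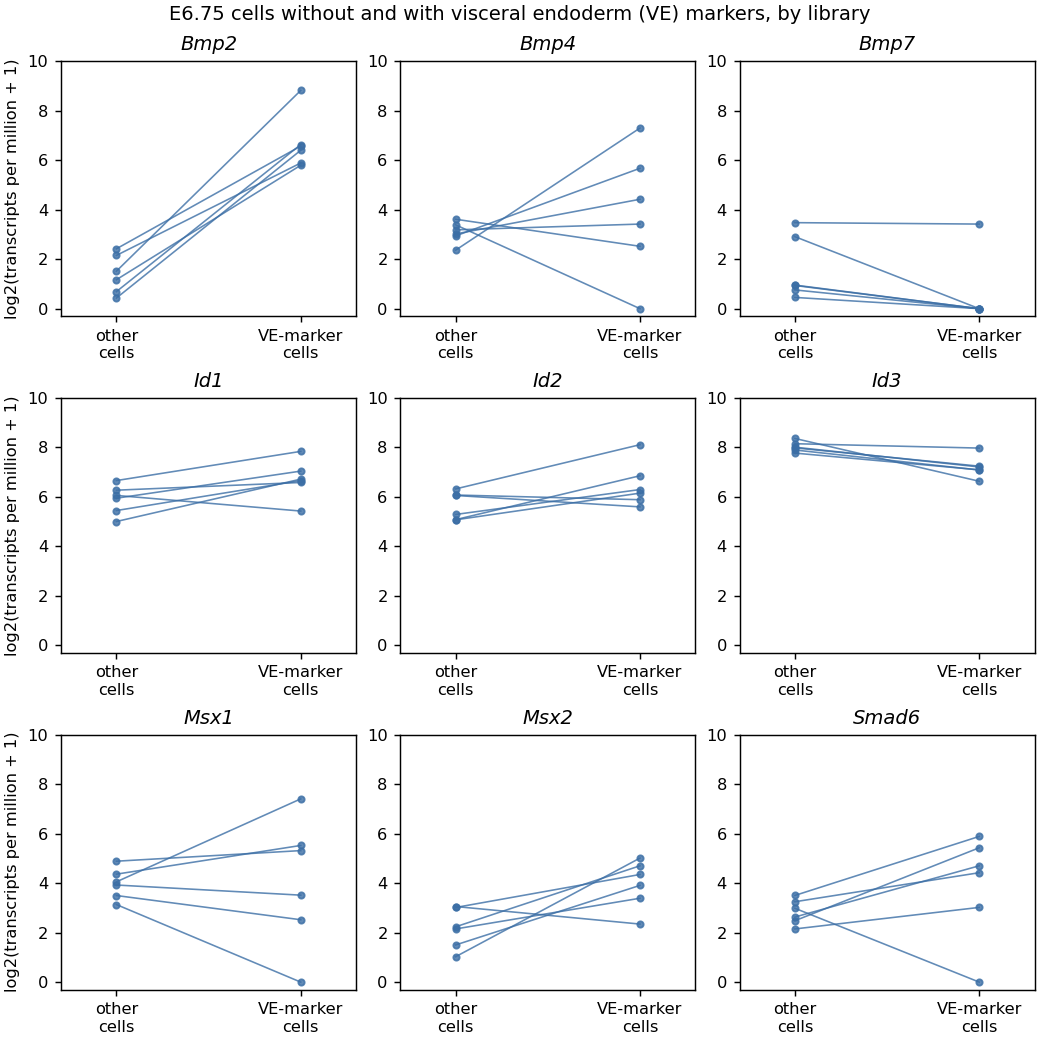
Each gene in E6.75 cells without and with visceral endoderm markers, as log2(CPM + 1); each line joins the 2 kinds of cells of 1 of 6 libraries. All 6 lines rise steeply for Bmp2 and all 6 fall for Id3.

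Extraembryonic ectoderm-marked cells were too few per library for a test. At E6.75, Bmp4 was found in 12 of 12 of them, at 544 CPM over all their transcripts, and at E7.5 in 4 of 5 at 586. Id2 was in 12 of 12 at 571 and in 5 of 5 at 1147, where the 2 cells of replicate 12 were at 1894; the other 3 E7.5 cells had Id2 at 585. Id3, abundant elsewhere, was at 22.4 in these E6.75 cells against 260 in cells without extraembryonic markers. As a measure of background, Bmp2 was in 1 of these 12 E6.75 cells (8.33%, median depth 30719.3), while it was in 67.5% of 40 visceral endoderm-marked cells (median depth 24062). Bmp4 in turn was in 17.5% of those 40.

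Ligand and target genes were also followed within single cells. The 160 E7.5 cells holding Bmp4 also held Msx2 in 50.6%, Msx1 in 59.4%, Smad6 in 55.6% and Bmp2 in 40% of cases, against 14.1%, 23.7%, 17.6% and 8.78% of the 262 cells without Bmp4. The cells with Bmp4 were deeper (median 40358.6 against 25729.9 transcripts), which raises every such share. At E6.75, 97 cells held Bmp4, and Msx2 was in 11.3% of them against 9.90% of the other 394, Msx1 in 20.6% against 21.3%. Those Bmp4 cells were likewise deeper (61041.3 against 36832.2). Bmp2 and Bmp4 shared 64 of 422 cells at E7.5 and 3 of 491 at E6.75. No test was made of these shares, since cells of a library are not replicates.

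The genes with the most similar pattern across single cells were ranked by Pearson's r of log2(transcripts per 10000 + 1), among genes held by at least 10% of cells. At E6.75 this left out Hand1 (7.13%) and Mesp1 (9.98%), so the rankings of the stages are not set against each other. These correlations are over cells that share libraries and depth, and are descriptions. Across 422 E7.5 cells and 10508 genes, Bmp4 was most like Hand1 (0.73), Spin2c (0.68) and Pmp22 (0.67), and Msx2 had the same 3 (0.74, 0.66 and 0.67). Msx1 was most like Hand1 (0.68), Msx2 (0.62) and Prdm6 (0.59), Bmp2 most like Igf2 (0.55) and Smad6 most like Prdm6 (0.54). For Bmp7, Id1, Id2 and Id3 the highest r was below that of any of these. Across 491 E6.75 cells and 10621 genes, Id1 was most like Evx1 (0.51), Id2 (0.50) and Msx1 (0.50), and Msx1 most like Evx1 (0.55). The r of Bmp4 with Msx1 in those cells was −0.01 and with Id1 0.01.

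Of 54 further genes of the pathway, 52 were in the tables. Between the stages 29 of them were tested, 17 were called higher and 4 lower by edgeR, where 38.8% of all genes were called and 20% called higher. The largest were Gata2, a target gene (3.97), the antagonist Nog (3.07), the ligand Gdf3 (−2.97) and the co-receptor Rgma (2.77). In E7.5 cells with Hand1, 17 were tested, with the target Tbx3 (4.04) and the pseudoreceptor Bambi (1.36) called higher and the antagonist Fst (−0.76) called lower, where 2.76% of all genes were called. At E6.75, 21 were tested and 4 were higher with Hand1: Tbx3 (3.67), Tfap2c (3.18), Smad1 (0.99) and Fst (0.84), where 1% of all genes were called. Fst therefore passed in opposite directions at the 2 stages, and the difference between them passed too (−1.59 ± 0.33, edgeR adjusted p = 0.014). Of the 27 tested for that difference by stage, Smad7, an inhibitory SMAD like Smad6, was the 1 whose Hand1 difference was higher at E7.5 (2.12), and Tfap2c (−3.00) was lower with Fst, where 0.451% of all genes were called.

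With Mesp1, Tbx3 (3.33), Fst (1.70) and Smad1 (1.11) were higher among 20 tested at E6.75 (1.17% of all genes called), and Smad1 (0.91), the ubiquitin ligase Smurf2 (0.44) and Fstl1 (0.43) among 14 at E7.5 (6.18%). Tbx3 was the 1 of 22 whose Mesp1 difference differed between stages (−2.77), where 0.403% of all genes did. Foxa2 cells had higher Fst (1.27, 1 of 19 tested, 0.502% of all genes called) at E6.75. At E7.5 they had higher Cer1, an antagonist of BMP and Nodal ligands (4.08, 1 of 13, 2.41%). For the Foxa2 difference, Tbx3 was the 1 of 23 that differed between stages (−3.20, 0.936%). With Sox2, none of 19 passed at E6.75 (0.241% of all genes did) or by stage (2.2%), and at E7.5 (9.11%), of 14 tested, Tbx3 (−2.09), Cer1 (−1.82) and Fstl1 (−0.39) were lower and Skil (0.53) higher. Visceral endoderm-marked cells had 7 of 21 higher and 6 lower, where 35.1% of all genes were called, led by Gdf3 (−7.59), Cer1 (6.71), Tbx3 (3.48) and Fst (−3.14).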

How the data were processed

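Each deposited table gave expected counts for every gene in every barcode, with 96 barcodes in use per library. Each nonzero value was what a whole number of UMIs gives once corrected for collisions among 4096 UMI sequences (to within 4.09e-12), so the authors had applied that correction and none for depth. The submitters' processing notes name bcl2fastq 2.17.1.14 and BWA 0.6.2-r126, while build, annotation and use of strand are not given in the sources used here. Features numbered 23093, of which 74 spike-ins and 22 mitochondrial genes were left out of depth and tests.

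Cells of the 96 barcodes with at least 2000 nuclear transcripts were analysed, in libraries that had 10 or more of them. No doublet caller was run, and cells above 3 times their library's median were left out as an alternative. A cell held visceral endoderm markers with at least 3 of 8 detected and 1000 CPM in sum, or extraembryonic ectoderm markers with at least 3 of 8 and 200 CPM. Expected counts were rounded and summed per library, or per library and side of a split with at least 3 cells on each side in at least 3 libraries, and tested with edgeR 4.0.16 in R 4.3.3 (TMM, filterByExpr, quasi-likelihood F test, library as a block in splits, Benjamini-Hochberg over all nuclear genes tested, threshold 0.05). Levels CPM are raw sums. Shares were the expected share over all thinnings to 2000 transcripts (numpy 2.4.6, pandas 2.3.3, scipy 1.17.1, Python 3.11.15), with exact permutation tests over 12376 arrangements. Both were tested on simulated data. Alternatives were DESeq2 1.42.0, no filter on low counts, no block, other cell minimums, thinned cells, the E6.75 libraries numbered 2_ alone, extraembryonic cells kept or left out, stricter markers and each library left out.

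The members and lists were chosen with earlier results of these data known. All 9 members were looked at in every comparison, but those not called are not all named in each. Of 54 further pathway genes, at most the 4 called with the largest change are named per comparison.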

Additional observations from a re-analysis of the deposited data

Results flagged for a closer look

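In 117 groups of 4 to 10 libraries, the highest or lowest library stood far from the others in 21. The rule is set to flag about 1 in 20 groups by chance. These groups share cells and many hold sparse counts, so 21 cannot be read as an excess. Levels are in CPM. Between the stages, Id2 in E6.75 library 2_12 was at 122, with 132 of its 355 transcripts in 6 extraembryonic ectoderm-marked cells. In visceral endoderm-marked E6.75 cells, library 2_12 was far above the others for Bmp2 (449), Id2 (275) and Id3 (249.7). So were library 1_10 for Bmp4 (156), library 2_14 for Bmp7 (9.68, from 2 transcripts in 1 cell) and library 1_11 for Msx1 (168). In E6.75 cells without Sox2, library 2_12 stood apart for Id2 (401) and Msx2 (25.1). In the Foxa2 split at E6.75, Msx1 was at 33.9 without Foxa2 in library 2_14 and Msx2 at 10.5 with it in library 2_13.

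At E7.5, replicate 8 stood apart in its 3 cells with Foxa2 for Id1 (312) and Id3 (533). In cells without Hand1, Bmp4 was at 19.9 in replicate 2, Msx1 at 86.9 in replicate 10 and Msx2 at 22 in replicate 9, and with Hand1, Bmp7 was at 75.2 in replicate 1. In cells with Sox2, Bmp7 was at 119 in replicate 1, Smad6 at 39.1 in replicate 10, and Id1 at 274 and Id3 at 557 in replicate 11.

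Bmp4 differed between the stages in its Hand1 difference (2.64 on the log2 scale) and its Sox2 difference (−2.97), by edgeR's test of the interaction. The unused barcodes of the 18 libraries, which no comparison used, held 27 transcripts of Bmp4, 4 of Bmp7, 13 of Id1, 16 of Id2, 56 of Id3, 15 of Msx1, 6 of Msx2 and 5 of Smad6, above the 3 that a count of 0 allows.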

How the results depend on the processing

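Counts of the 9 genes called were recomputed under 311 alternatives, of which 258 stayed within 1.5 times the reported count. With cells thinned to 2000 transcripts, the count went from 7 to 1 between stages, and to 0 for Mesp1 at E6.75 (from 3) and E7.5 (1), Foxa2 (2), Hand1 (8) and Sox2 (4) at E7.5, Sox2 by stage (1) and visceral endoderm-marked cells (7), where few genes could be tested. Without the replicate block by library, it was 1 for Mesp1 and 2 for Hand1 (from 4) at E6.75, 5 for Hand1 at E7.5, and 0 for Mesp1 and Foxa2 at E7.5 and for Hand1 (from 1) and Sox2 by stage. With DESeq2 it was 0 for Mesp1 and 2 for Hand1 at E6.75, and 0 for Foxa2 at E7.5. With no filter on low counts it was 1 for Foxa2 at E6.75 (from 0), 3 for Mesp1 and 6 for Foxa2 at E7.5, and 2 for Mesp1 and for Foxa2 by stage (from 0). With extraembryonic cells kept it was 0 for Mesp1, 1 for Foxa2 and 2 for Sox2 (from 0) at E6.75, 1 for Foxa2 and 0 for Hand1 by stage, where Bmp4 reversed to −0.53. Requiring 2 marker transcripts gave 6 for Foxa2 at E7.5 and 2 by stage. Cells of at least 5000 transcripts gave 2 for Hand1 at E6.75, and leaving out very deep cells gave 0 for Mesp1 at E7.5. For visceral endoderm-marked cells, libraries numbered 2_ alone and a marker sum of 5000 gave 4 each. Leaving out 1 library gave 0 to 3 for Mesp1 at E6.75 (0 without 2_13, 1 without 2_14), 2 to 4 for Hand1 at E6.75 (2 without 2_14) and 0 to 1 for Hand1 by stage (0 without 2_14), and at E7.5 0 to 2 for Mesp1 (0 without replicate 2, 6, 7 or 11, 2 without 1), 1 to 6 for Foxa2 (1 without 1, 2, 3, 4, 7 or 11, 6 without 8), 5 to 8 for Hand1 (5 without 1 or 2) and 2 to 5 for Sox2 (2 without 3). Where no value shows one, the cause was not tested.

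Of 2404 values of single genes, 2279 kept their direction and side of the threshold, 91 lost a call, 33 gained one and 1 reversed. A further 112 changed sign without passing either way, and 6 adjusted p-values from DESeq2 were not given. Over all genes, the counts of calls ran from 602 (thinned) to 4664 (no filter) between stages against 3879, from 229 to 3983 against 3167 for visceral endoderm-marked cells, from 15 to 437 against 184 for Hand1 at E7.5, from 10 to 915 against 557 for Sox2, from 16 to 689 against 149 for Foxa2 and from 4 to 870 against 379 for Mesp1 at E7.5. At E6.75 they ran from 27 to 211 against 94 for Hand1, 1 to 343 against 22 for Sox2, 2 to 442 against 48 for Foxa2 and 4 to 362 against 114 for Mesp1. By stage, they ran from 0 to 107 against 40 for Hand1, 1 to 241 against 164 for Sox2, 5 to 202 against 81 for Foxa2 and 0 to 111 against 33 for Mesp1. Thinned cells could not be fitted for Hand1 at E6.75 or by stage, and settings that kept the same libraries were not run again. Depth limited Bmp2, Bmp7, Msx2 and Smad6, which had too few counts in several splits. Intervals and floors of counts cover counting error only.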
